A study of Mus musculus with 19 samples.

Results

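The level of 9 genes used as markers of mouse pluripotent stem cells was read in every library of the series: Zfp42, Dppa5a, Dppa2, Dppa3, Dppa4, Utf1, L1td1, Lin28a and Sall4. They were chosen by gene symbol, and all 9 were present among the 23420 genes of the count tables. Zfp42 (also called Rex1) is a zinc finger protein used to mark naive pluripotent cells, the state of the inner cell mass and of embryonic stem cells (ESC), and it is lost in epiblast stem cells (EpiSC), which resemble the epiblast after implantation. The Dppa genes were named for their expression in early embryos, germ cells and stem cells, whereas Lin28a and Sall4 are used in both pluripotent states and in several fetal progenitors. Lin28a protein blocks the maturation of let-7 miRNAs, and Sall4 is a zinc finger factor that recruits the NuRD corepressor.

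RNA was sequenced from 14 induced pluripotent stem cell (iPSC) cultures, 3 ESC and 2 EpiSC of the inbred strains NOD/ShiLtJ, WSB/EiJ and 129S1/SvImJ, 1 library each, to ask how iPSC of strains that resist reprogramming compare with these reference states. All iPSC were derived from embryonic fibroblasts with a polycistronic lentivirus that carries the reprogramming factors and was not removed, and each iPSC line is 1 clone that was depleted of feeder fibroblasts. The 3 ESC, supplied by another laboratory, were male, at passage 6, 1 of each strain. They were grown in serum with LIF (ESC/LIF) plus GSK3B and MEK inhibitors. The 2 EpiSC were male lines from other laboratories, NOD/ShiLtJ at passage 38 and a line of 129 background at passage 16. The EpiSC were kept under separate EpiSC culture conditions. Laboratory of origin differed between the cell states, as did passage between ESC and the rest and medium between EpiSC and the rest. These cannot be told apart from cell state.

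The 4 iPSC of 129S1/SvImJ in ESC/LIF were clones 1 and 17 (male) and 5 and 8 (female), at passages 17 to 21. Clones 1 and 17 were sequenced again after a move to 2iS, which is ESC/LIF with both inhibitors, at passages 31 and 30. In 2iS there were also 4 WSB/EiJ iPSC (clones 12 and 25 male, 23 and 28 female, passages 16 to 20), 2 NOD/ShiLtJ female iPSC (clones 7 and 52, passages 17 and 18) and 2 NOD/ShiLtJ male iPSC (clones 3 and 35, passages 26 and 16). Groups follow the sample titles. For these samples the source name and the characteristics give a different condition in all 19 libraries and a different cell state in 6, and under those labels none of the 9 genes passed the test between cell states.

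Depth was low. In 17 libraries 92996 to 226794 read pairs fell on genes, which was 1.15% to 1.74% of the uniquely aligned pairs, and 55 to 488 of them fell on the 9 genes. The NOD/ShiLtJ male iPSC stood apart, with 430173 and 567432 read pairs on genes, 5.59% and 5.62% of the aligned pairs. Genes with exons lying opposite the exons of a gene on the other strand took 60.3% to 76.1% of the counts in the 17 libraries and 37.6% to 38.1% in the NOD/ShiLtJ males, although they are 24.4% of the 21737 genes matched to the annotation. Among the 9 genes only Lin28a (234 bases, with Gm13061) and Sall4 (526 bases, with Gm14261) have such an overlap, and the strand setting used for counting is not given in the sources used here. The kit marks strand, so counting with the opposite setting would have kept reads of the wrong strand. Whether this happened was not tested. If it did, the counts of all 9 genes, and the levels and orders drawn from them, may not reflect their mRNA. The values of Lin28a and Sall4 may also include reads of the genes opposite them. Values are given in CPM, gene counts divided by the TMM-scaled library size and written on the usual common scale, and "12 iPSC" means all iPSC but the NOD/ShiLtJ males, which were compared on their own.

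The reference lines carried the marks of their labels. Of 12 other naive markers, all had counts in ESC and 6, among them Esrrb, Klf4 and Prdm14, had none in EpiSC. Their summed level was 36.1 and 75.7 CPM in the 2 EpiSC and at least 856 CPM in each ESC and iPSC. Klf4 is also a factor of the lentivirus, so its iPSC counts may include reads of the virus, which was not tested. It had 258 ± 102 CPM in the 12 iPSC (SD, n = 12) and 126 ± 47.2 CPM in ESC (SD, n = 3). The 12 primed markers summed to 485 and 825 CPM in EpiSC and 106 to 385 CPM in ESC. The 12 fibroblast markers summed to 1690 to 2260 CPM in ESC, 119 and 765 CPM in EpiSC and 269 to 937 CPM in the 12 iPSC. In the NOD/ShiLtJ males the sums were 2570 and 3610 CPM, nearly all from Fn1 (3090 ± 735 CPM, SD, n = 2). There 6 of the 12 markers had 0 counts. Fn1 was likewise nearly all of the sum in NOD/ShiLtJ females (888 ± 69.3 CPM, SD, n = 2, with 9 markers at 0). The same held for 129S1/SvImJ in 2iS (458 ± 57.1 CPM, SD, n = 2, with 11 markers at 0). In ESC, Fn1 was 1120 ± 160 CPM (SD, n = 3). Col1a1 was 1.88 ± 2.66 CPM in the NOD/ShiLtJ males, against 360 ± 68.3 CPM in ESC (SD, n = 3).

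**Figure D1:**
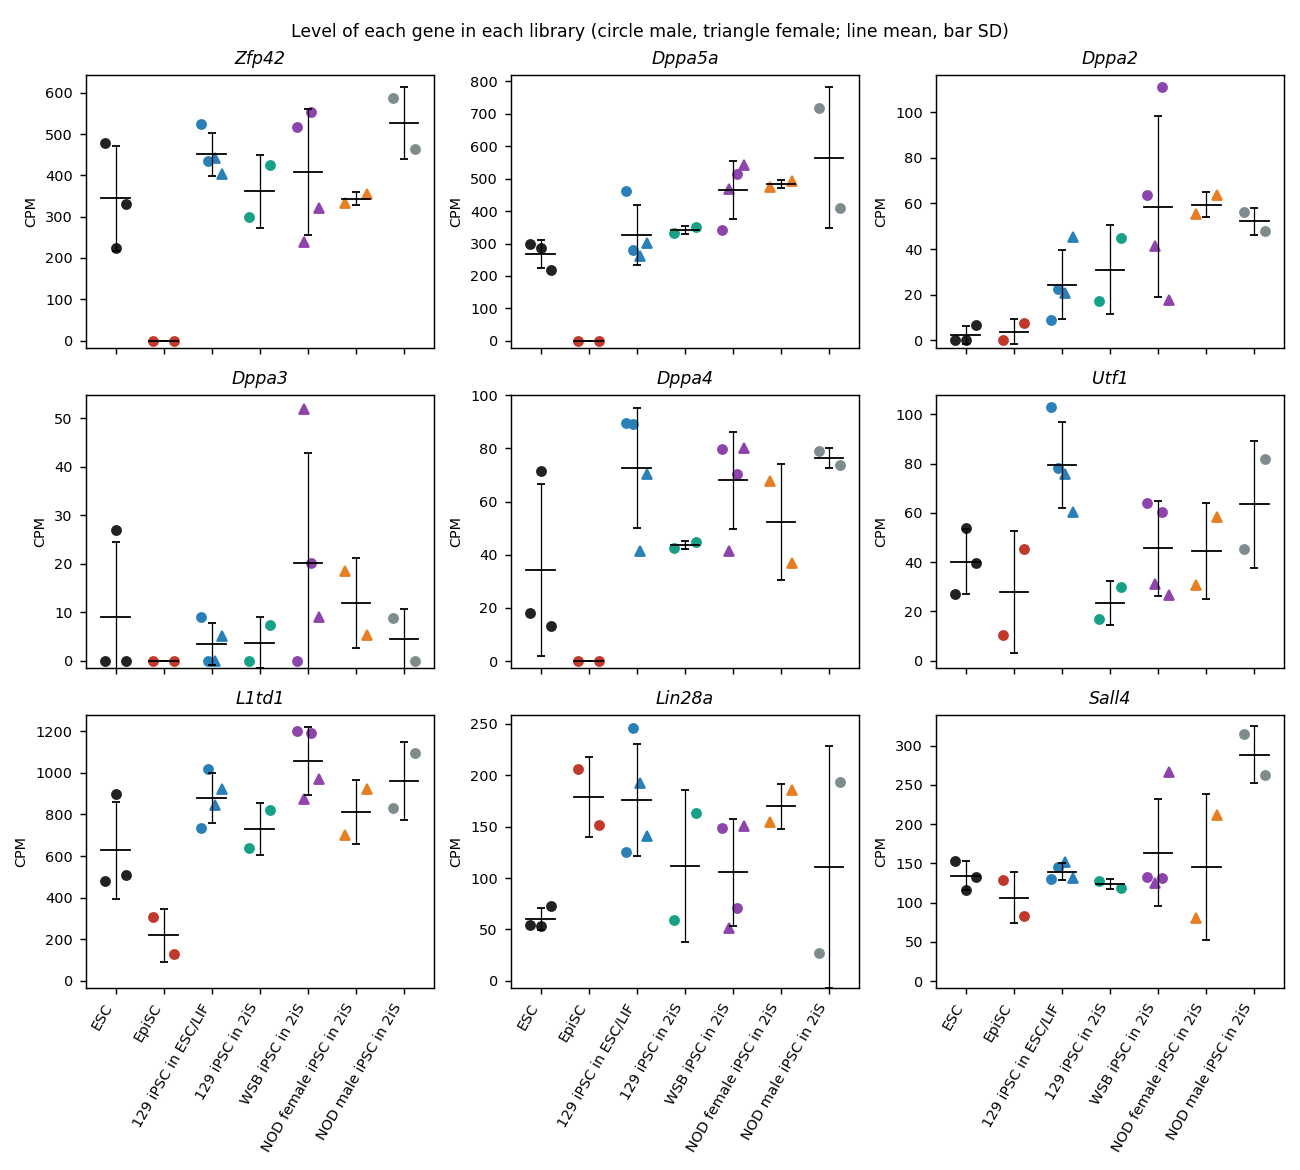
Level of each of the 9 genes in each library, in CPM (vertical axis, linear), by group (horizontal axis). Each circle is a male and each triangle a female library, the line is the group mean and the bar is the SD. Zfp42, Dppa5a and Dppa4 sit at 0 in both EpiSC, Dppa2 is near 0 in ESC and EpiSC alike, and Lin28a is lowest in ESC by group mean.

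Zfp42 separated the naive lines from EpiSC without exception. It had 53, 25 and 50 read pairs in the NOD/ShiLtJ, WSB/EiJ and 129S1/SvImJ ESC, which is 478, 224 and 332 CPM, and 0 in both EpiSC. In the 12 iPSC it ranged from 239 to 554 CPM with a median of 413.6 CPM. Every ESC and iPSC library was therefore above every EpiSC library. With 128 counts in ESC and 724 in the 12 iPSC against 0 in EpiSC, the pooled level was at least 37.2-fold higher in ESC and at least 44.8-fold higher in iPSC, taking 3 counts over the EpiSC group as the floor (edgeR quasi-likelihood test, adjusted p = 1.48e-06 and 9.4e-08). In bulk RNA, fewer cells of a type and less RNA per cell cannot be told apart.

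The Zfp42 gene lies on the minus strand of chromosome 8 (GRCm38, 43295063 to 43306980). The stretch from 250 to 51 bases before its RefSeq start (GRCm38.p6) is shown since Zfp42 had the widest contrast between states, beside that of Lin28a, which was counted in every library. Both are written 5′ to 3′ on the strand of the gene, with capitals for matches to the octamer ATGCAAAT, the SOX core CATTGT or the GC box GGGCGG, on either strand.
Zfp42, chr8:43307060-43307259, minus strand: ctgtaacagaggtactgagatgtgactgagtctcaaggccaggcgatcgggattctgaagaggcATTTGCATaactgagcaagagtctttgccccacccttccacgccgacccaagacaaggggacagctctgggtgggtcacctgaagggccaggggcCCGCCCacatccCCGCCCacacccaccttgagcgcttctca
Lin28a, chr4:134018867-134019066, minus strand: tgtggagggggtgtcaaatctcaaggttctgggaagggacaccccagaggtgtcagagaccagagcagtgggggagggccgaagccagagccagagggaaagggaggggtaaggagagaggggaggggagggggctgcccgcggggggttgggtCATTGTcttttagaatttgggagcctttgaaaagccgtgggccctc
The Zfp42 stretch holds 1 octamer, with its first base at -186 from the start, and GC boxes at -91 and -79. The Lin28a stretch holds 1 SOX core at -96. Among all promoters of the same length, 1.32% hold the octamer, 9.21% the SOX core and 24.5% the GC box. Promoter sequence was matched for 4 of the 9 genes, and the match of letters is a description of the sequence only.

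Dppa5a, a small protein with an RNA-binding KH fold that is abundant in ESC, behaved as Zfp42 did. It had 33, 32 and 33 counts in the 3 ESC (297, 287 and 219 CPM), 0 in both EpiSC, and 262 to 542 CPM in the 12 iPSC, with a median of 405.4 CPM. The ESC and iPSC ranges both lay above EpiSC. The pooled level was at least 28.5-fold higher in ESC and at least 43.5-fold higher in iPSC (adjusted p = 1.48e-06 and 4.96e-08, edgeR). Per kilobase of exon, Dppa5a was the most abundant of the 9 genes in the 12 iPSC, with a mean of 648.6 CPM per kb, followed by L1td1 with 284.3, Zfp42 with 214.6 and Utf1 with 43.2. The other 5 genes lay between 11.8 and 37.9 CPM per kb.

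L1td1, an RNA-binding protein derived from the first reading frame of the LINE-1 retrotransposon, was reduced but not absent in EpiSC. The 3 ESC had 478, 896 and 511 CPM, and the 12 iPSC 640 to 1198 CPM with a median of 896.2 CPM. The NOD/ShiLtJ EpiSC had 310 CPM from 60 counts and the 129 EpiSC 129 CPM from 17. No EpiSC library reached the lowest ESC or iPSC library. L1td1 was higher in ESC by 1.52 on the log2 scale (SE 0.368, adjusted p = 0.00832, edgeR) and in iPSC by 2.03 (SE 0.338, adjusted p = 0.000139, edgeR). Without the 129 EpiSC, where the lone EpiSC left is assumed to vary like the other groups, the ESC difference was 0.99 and no longer passed (adjusted p = 0.167, edgeR), whereas the iPSC difference remained past the threshold at 1.52 (adjusted p = 0.0111, edgeR).

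Dppa4 and Dppa2 lie next to each other on chromosome 16 on the same strand, with 9670 bases between the end of Dppa4 and the start of Dppa2, and their proteins form a complex that binds the promoters of developmental and early embryonic genes. Dppa4 had 2, 8 and 2 counts in the NOD/ShiLtJ, WSB/EiJ and 129S1/SvImJ ESC (18.03, 71.7 and 13.3 CPM), 0 in both EpiSC and 37.0 to 89.5 CPM in the 12 iPSC. It was counted in all ESC and iPSC and in no EpiSC. The pooled level was at least 3.49-fold higher in ESC (12 counts) and at least 6.93-fold higher in iPSC (112 counts) than in EpiSC (adjusted p = 0.00945 and 0.000271, edgeR). The ESC difference did not pass without the NOD/ShiLtJ EpiSC (adjusted p = 0.0657), the 129 EpiSC (0.0632) or the WSB/EiJ ESC (0.075, all edgeR).

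Dppa2 had fewer counts in ESC than its neighbour Dppa4, most of whose ESC counts came from the WSB/EiJ line. This contrast was not tested. Dppa2 had 0, 0 and 1 counts in the NOD/ShiLtJ, WSB/EiJ and 129S1/SvImJ ESC, and 0 and 1 counts in the NOD/ShiLtJ and 129 EpiSC. All 12 iPSC had counts, 2 to 12 per library and 74 in all, or 8.95 to 111 CPM with a median of 43.1 CPM. Every iPSC library was thus above every ESC and EpiSC library, the lowest being 129S1/SvImJ clone 1 in ESC/LIF. The pooled iPSC level was 15.7-fold that of ESC (95% counting interval 2.74 to 630, 74 counts against 1) and 13.7-fold that of EpiSC (2.39 to 550). These intervals cover counting error only.

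Dppa2 was below the filter on low counts of the state fit, so the difference was tested over libraries. The exact two-sided permutation p was 0.0044 against ESC, the smallest the 455 splits can give, and 0.022 against EpiSC, the smallest of 91 splits. Over the 18 permutation tests run on genes below a filter, the adjusted values were 0.0791 and 0.198, so neither passed the correction. The 12 iPSC libraries come from 10 clones, since 129S1/SvImJ clones 1 and 17 have a library in each medium, and these tests and the edgeR fits treat them as separate. With the libraries of each clone averaged, the exact p was 0.00699 against ESC and 0.0303 against EpiSC, the smallest that 286 and 66 splits can give. Without the filter, edgeR placed the differences at 3.61 (SE 0.922, adjusted p = 0.00462) and 3.50 (SE 0.984, adjusted p = 0.00614) on the log2 scale, and DESeq2 gave adjusted p = 0.109 and 0.0914. The ESC also had the higher fibroblast marker sum, with Col1a1 at 360 ± 68.3 CPM (SD, n = 3) against 5.39 ± 10.1 CPM in the 12 iPSC (SD, n = 12), and the part of this in the Dppa2 difference was not tested. Laboratory and passage also differed between ESC and iPSC and cannot be told apart from cell state.

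**Figure D2:**
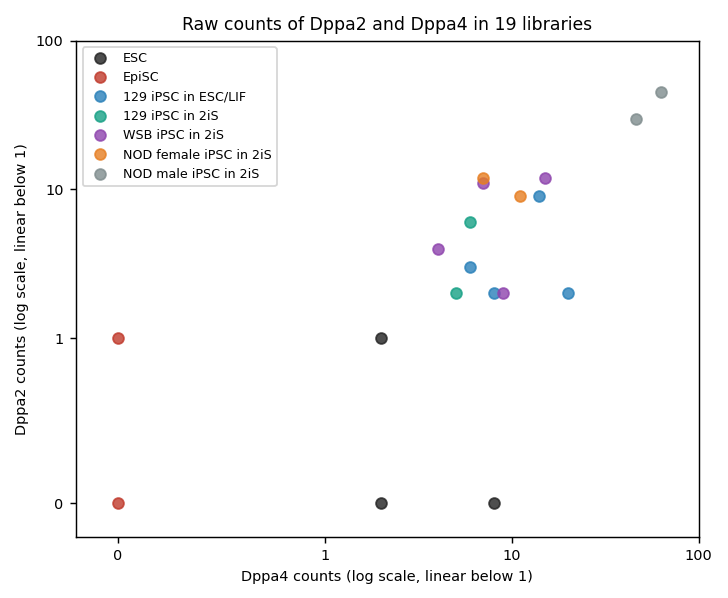
Raw counts of Dppa2 (vertical axis) against Dppa4 (horizontal axis) in all 19 libraries, both axes logarithmic above 1 and linear below, coloured by group. The ESC have 2 to 8 Dppa4 counts and at most 1 Dppa2 count, both EpiSC have 0 Dppa4 counts, and each iPSC library has at least 2 counts of Dppa2 and 4 of Dppa4.

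Within the iPSC, Dppa2 was lowest on average in 129S1/SvImJ, at 24.3 ± 15.2 CPM in ESC/LIF (SD, n = 4) and 30.9 ± 19.5 CPM in 2iS (SD, n = 2). It was 59.5 ± 5.7 CPM in NOD/ShiLtJ females (SD, n = 2) and 58.5 ± 39.6 CPM in WSB/EiJ (SD, n = 4). The WSB/EiJ clones alone spanned 17.8 CPM in clone 28 to 111 CPM in clone 25 and so overlapped the 129S1/SvImJ range, and the exact permutation p of the strain and medium differences was 0.333 to 0.933. These designs cannot reach 0.05, since the smallest p is 0.333 for 2 libraries against 2 and 0.133 for 2 against 4.

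Dppa3 (Stella), which protects imprinted DNA methylation in the zygote and binds UHRF1, was at the limit of detection. Its 16 counts in the 12 iPSC came from 8 clones, with 5 of them in WSB/EiJ clone 23 alone. All 3 counts of the ESC were in the WSB/EiJ line, and the EpiSC had 0. The iPSC to ESC ratio was 1.13 with a counting interval of 0.325 to 6.07, so no difference was detectable at this depth, and against EpiSC the pooled iPSC level of 9.12 CPM lay under the floor of 9.21 CPM.

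Utf1, a chromatin-bound protein of undifferentiated stem cells, was counted in every library, EpiSC included. It had 2 and 6 counts in the NOD/ShiLtJ and 129 EpiSC (10.3 and 45.4 CPM), and 27.0, 53.8 and 39.8 CPM in the NOD/ShiLtJ, WSB/EiJ and 129S1/SvImJ ESC. The 12 iPSC had 17.06 to 103 CPM with a median of 59.3 CPM. The 3 states overlapped, with log2 differences of 0.676 for ESC and 1.09 for iPSC against EpiSC (adjusted p = 0.578 and 0.186, edgeR). On the scale of aligned pairs the iPSC difference was 1.60 and passed (SE 0.596, adjusted p = 0.0418, edgeR).

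Lin28a ran against the naive genes in ESC. It had 206 and 152 CPM in the NOD/ShiLtJ and 129 EpiSC, and 54.1, 53.8 and 73.0 CPM in the NOD/ShiLtJ, WSB/EiJ and 129S1/SvImJ ESC. The ESC and EpiSC did not overlap. Lin28a was lower in ESC than in EpiSC by 1.51 on the log2 scale (value -1.51, SE 0.501, adjusted p = 0.0462, edgeR), a call at the edge of the threshold that was lost in 11 of 14 alternatives (-1.76 to -1.12). The 12 iPSC ran from 51.9 to 246 CPM with a median of 150.1 CPM and overlapped both, at -0.314 against EpiSC (adjusted p = 0.566) and 1.19 against ESC (SE 0.40, adjusted p = 0.083, edgeR).

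For Sall4 no difference between the states passed the test. The 3 ESC had 153, 117 and 133 CPM, the EpiSC 129 and 83.3 CPM, and the 12 iPSC 80.2 to 267 CPM with a median of 131 CPM. All 3 ranges overlapped. The log2 differences from EpiSC were 0.355 in ESC and 0.459 in iPSC (adjusted p = 0.601 and 0.332, edgeR), with 95% intervals of -0.449 to 1.16 and -0.215 to 1.13. On the scale of aligned pairs the iPSC difference was 0.941 (adjusted p = 0.073, edgeR).

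In all, 5 of the 7 genes that passed the filter differed between ESC and EpiSC, where 14.9% of 3986 tested genes did (4 higher, against 7.3%, and Lin28a lower, against 7.55%), and 4 of 7 were higher in iPSC than in EpiSC, where 12.1% were higher and 28.5% differed. The ranges of 5 of the 9 genes did not overlap in each of these comparisons, against 41% and 22.7% of tested genes. DESeq2 called the same 5 and 4 genes. Both comparisons use the same 2 EpiSC. With the uniquely aligned pairs as library size in place of gene counts, the median of all genes shifted by 0.178 for ESC and 0.485 for iPSC on the log2 scale, and the share of called genes that were higher than in EpiSC was 62.8% and 76.9% in place of 49.2% and 42.5%. The 9 genes held 0.146% of all gene counts in ESC, 0.215% in the 12 iPSC and 0.0441% in EpiSC. L1td1 took a like share of them in each state (41.1%, 41.3% and 42.3%), whereas Lin28a and Sall4 made up 33% and 19.8% in EpiSC and 6.62% and 6.68% in the 12 iPSC. Such shares are not levels, since Zfp42, Dppa5a and Dppa4 had 0 counts in EpiSC and the shares of the rest rise for that reason alone. In CPM, L1td1 was lower in EpiSC, and neither Lin28a nor Sall4 passed between iPSC and EpiSC.

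Between iPSC and ESC none of the 7 tested genes passed, where 6.27% of 3986 genes did. At an unadjusted p under 0.05 there were 2 (Dppa5a and Lin28a) by edgeR, and DESeq2 called none, with 4 at that level. Only Dppa2, described above, had ranges that did not overlap, which 5.97% of tested genes had. On the scale of aligned pairs the median of all genes rose by 0.304, 60.4% in place of 14.8% of called genes were higher in iPSC, and Lin28a passed at 1.48 (SE 0.414, adjusted p = 0.0299, edgeR).

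**Figure D3:**
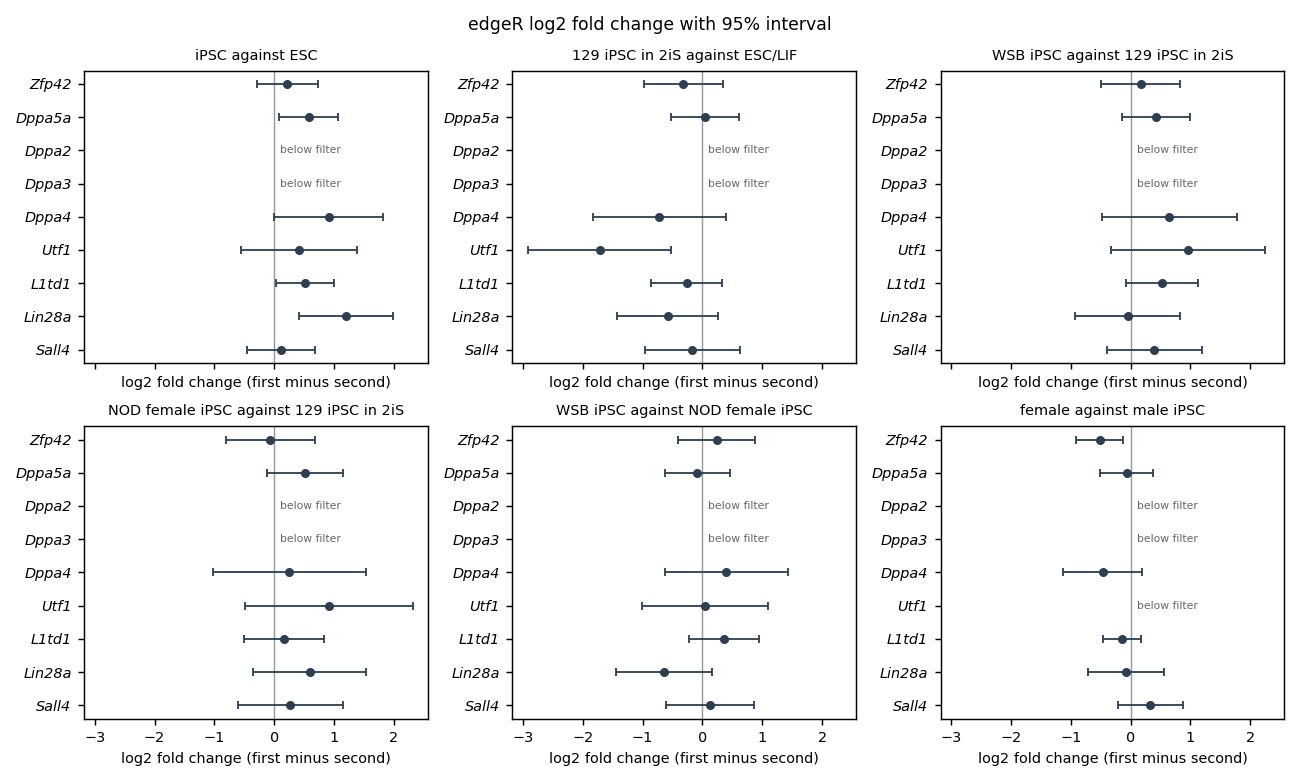
log2 fold change (horizontal axis, first group minus second) from edgeR for each gene in 6 comparisons, with bars for the 95% interval. Genes below the filter on low counts are marked. No gene passed an adjusted p of 0.05 in these comparisons, and Utf1 in 129S1/SvImJ iPSC (-1.72) and Lin28a in iPSC against ESC (1.19) lie farthest from 0.

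Medium was compared within 129S1/SvImJ, the strain grown in both. Utf1 had 103, 75.8, 60.4 and 78.2 CPM in clones 1, 5, 8 and 17 in ESC/LIF, and 17.06 and 29.8 CPM in clones 1 and 17 in 2iS. All 4 libraries in ESC/LIF were above both in 2iS, and clone 1 went from 23 counts to 2 and clone 17 from 7 to 4. The log2 difference was -1.72 (SE 0.609), which did not pass (adjusted p = 0.268, edgeR, with 0.132 to 0.889 over the alternatives that gave one, DESeq2 giving none). None of the 7 tested genes passed by edgeR or DESeq2, where 0.778% of all genes did by edgeR, and Utf1 was the 1 gene at an unadjusted p under 0.05 by each tool. Ranges that did not overlap were seen for Utf1 and Sall4, and for 23.2% of all genes. Sall1, a relative of Sall4, was the member of the list of SALL4 relatives and NuRD subunits that passed, at 94.1 ± 25.2 CPM in ESC/LIF (SD, n = 4) and 7.44 ± 10.5 CPM in 2iS (SD, n = 2), or -3.41 on the log2 scale (SE 0.786, adjusted p = 0.0343, edgeR). Passage moved with medium in these libraries and the 2 cannot be told apart. Clones 5 and 8 in ESC/LIF were female, whereas both libraries in 2iS were male, so sex also differed between the groups.

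Strain was compared among iPSC in 2iS. The 129S1/SvImJ libraries there were both male, at later passages, and from clones derived in ESC/LIF. The WSB/EiJ clones were of both sexes and the NOD/ShiLtJ clones female, and both sets were derived in 2iS. Differences from 129S1/SvImJ therefore cannot be told apart from passage and derivation medium, nor from sex for the NOD/ShiLtJ females. None of the 7 tested genes passed between WSB/EiJ and 129S1/SvImJ (1.3% of all genes did), NOD/ShiLtJ females and 129S1/SvImJ (0.226%), or WSB/EiJ and NOD/ShiLtJ females (1.05%). By edgeR and by DESeq2 the count at an unadjusted p under 0.05 was 0 in each. Dppa5a had 333 and 350 CPM in 129S1/SvImJ, 492 and 475 CPM in NOD/ShiLtJ females, and 341, 467, 514 and 542 CPM in WSB/EiJ clones 12, 23, 25 and 28. The NOD/ShiLtJ females lay above 129S1/SvImJ, as did the ranges of Dppa2 and Utf1, while 42.2% of all genes did not overlap in that comparison. The Dppa5a difference was 0.511 on the log2 scale with a 95% interval of -0.128 to 1.15 (adjusted p = 0.752, edgeR). L1td1 was 872 to 1198 CPM in WSB/EiJ and 640 and 819 CPM in 129S1/SvImJ in 2iS, without overlap (24.8% of all genes), and the difference of 0.525 had an interval of -0.0714 to 1.12 (adjusted p = 0.49, edgeR).

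Female and male iPSC were compared over 4 clones of each sex, with strain as a covariate (129S1/SvImJ in ESC/LIF and WSB/EiJ in 2iS, so strain includes medium). Zfp42 had 441 and 403 CPM in the female and 524 and 436 CPM in the male 129S1/SvImJ clones. In WSB/EiJ it had 239 and 320 CPM in the female and 517 and 554 CPM in the male clones. The sexes were apart in WSB/EiJ and overlapped in 129S1/SvImJ. Over all 8 clones the ranges of each of the 9 genes overlapped, as did all but 4.64% of tested genes. Zfp42 was at -0.515 in females against males (SE 0.202, adjusted p = 0.261, edgeR), and none of the 6 tested genes passed by edgeR or DESeq2, where 1.14% of 2110 genes did by edgeR. Zfp42 was the 1 gene at an unadjusted p under 0.05 by each tool. The difference between the sex effects of the strains was -0.691 (SE 0.385, adjusted p = 0.833, edgeR).

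The NOD/ShiLtJ male iPSC were compared with the NOD/ShiLtJ females. Sall4 had 315 and 263 CPM in male clones 3 and 35, from 251 and 164 counts, and 212 and 80.2 CPM in female clones 7 and 52, from 40 and 13 counts. Both males were above both females, as 71% of 4641 tested genes were either wholly above or wholly below. Sall4 differed by 0.963 on the log2 scale (SE 0.368, adjusted p = 0.0483, edgeR) and was the 1 of 8 tested genes to pass, where 30.5% of all genes differed and 8.14% were higher in males. The call was lost by DESeq2 (adjusted p = 0.214), without male clone 3 (0.229, edgeR), without male clone 35 (0.0974, edgeR) and without female clone 52 (0.592, edgeR).

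Lin28a split the NOD/ShiLtJ male clones, with 22 counts (27.6 CPM) in clone 3 and 121 counts (194 CPM) in clone 35. In CPM, clone 3 was the lowest of all 19 libraries and clone 35 lay within the range of the other iPSC. The females had 185 and 154 CPM, between the males. These ranks depend on the scaling. With counts divided by aligned pairs, on the same common scale, clone 3 had 2.18 and clone 35 had 15.7. Clone 3 was then above the NOD/ShiLtJ, WSB/EiJ and 129S1/SvImJ ESC (0.562, 0.658 and 1.02) and between the females (2.93 and 2.12). Clone 35 was above every other library, the next being 129S1/SvImJ clone 17 in ESC/LIF at 3.41. With 1 male clone left, its spread is assumed to be that of the other groups. Without clone 35 the difference was -2.62 (SE 0.587, adjusted p = 0.00143, edgeR), and without clone 3 it was 0.174 (adjusted p = 0.853, edgeR). On the scale of aligned pairs the median of all genes moved by 2.42 toward males, 98.8% in place of 26.7% of called genes were higher in males, and all 8 tested genes passed, at 1.79 (Lin28a) to 3.36 (Sall4). Relative to that shift, Zfp42 (3.04), Dppa4 (2.99), Utf1 (2.88), L1td1 (2.66), Dppa5a (2.65) and Sall4 were above the median gene and Dppa2 (2.23) and Lin28a below. With DESeq2 size factors the median moved by -0.115 and 18.8% of called genes were higher.

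**Figure D4:**
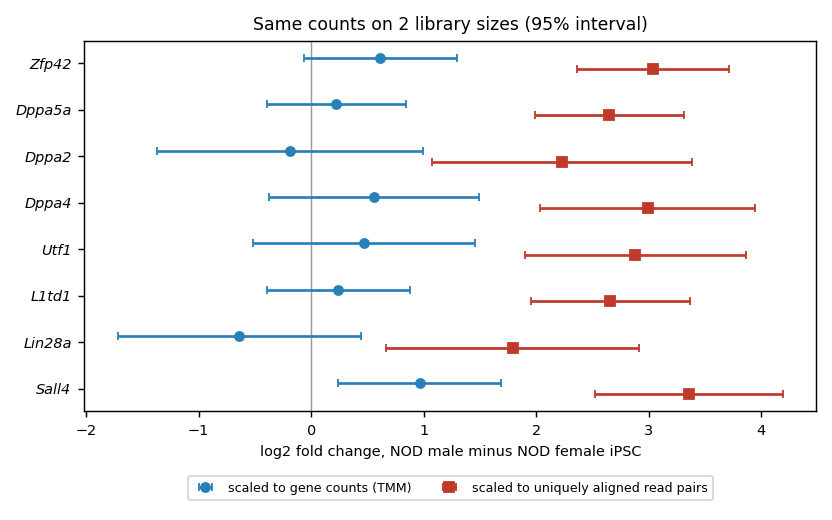
log2 fold change of 8 genes between NOD/ShiLtJ male and female iPSC (horizontal axis), with 95% intervals, when the same counts are scaled to gene counts (circles) or to uniquely aligned read pairs (squares). The squares lie between 1.79 and 3.36, and on gene counts Sall4 at 0.963 is the gene that passed the threshold.

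The 12 iPSC libraries span 3 strains, 2 media and both sexes, so their spread holds more than differences between clones. Over them the coefficient of variation of CPM was 19.4% for L1td1, 24.3% for Zfp42 and 24.8% for Dppa5a, where counting error alone gives 9.1%, 13.6% and 13.6%. For Dppa4 it was 32.0%, near the 34.5% of counting error. For Dppa2 it was 67.1% against 41.9%, and the highest clone had 12.4 times the level of the lowest. Lin28a (40.8% against 23.0%), Utf1 (49.0% against 37.6%) and Sall4 (33.1% against 22.6%) lay between, and Dppa3, at 0 to 5 counts, had 140% against 84.3%. In the order of group means, EpiSC was last and separate from the next group for Zfp42, Dppa5a, Dppa4 and L1td1, whereas neighbouring groups overlapped throughout for Utf1, Lin28a, Sall4 and Dppa3.

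Other genes of the same pathways were read from fixed lists. All 9 tested naive markers rose in ESC and in iPSC over EpiSC, where 7.3% and 12.1% of all genes were higher. Their median differences were 5.16 and 5.93, against 0.108 and 0.132 over all genes. None of these markers passed between iPSC and ESC, where 6.27% of all genes did. Klf4 is among the 9, and its iPSC counts may include reads of the lentivirus. Esrrb, an orphan nuclear receptor of the naive network, had 67 counts in ESC, 428 in the 12 iPSC and 0 in EpiSC. Of 2 tested primed markers, Krt18 was lower in ESC than in EpiSC (-4.70, adjusted p = 0.0398, edgeR), where 7.55% of all genes were lower. Its 1 count in ESC gave 3 ± 5.2 CPM (SD, n = 3), and its 27 counts in EpiSC 99.8 ± 127 CPM (SD, n = 2). The SD exceeded the mean in EpiSC, so the 2 lines were far apart. Dnmt3b was lower in iPSC than in EpiSC (-1.16, adjusted p = 0.0328, edgeR), where 16.4% of all genes were lower. Of the 8 tested genes of the LIN28 and let-7 pathway, Igf2bp3, an RNA-binding let-7 target, was lower in iPSC than in EpiSC, at 88.4 ± 35 CPM (SD, n = 12) against 237 ± 7.17 CPM (SD, n = 2), or -1.35 (SE 0.317, adjusted p = 0.00311, edgeR). That is 1 of 8, where 28.5% of all genes differed. None of the 8 passed between ESC and EpiSC, where 14.9% of all genes did.

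Of 11 genes listed as DPPA2 and DPPA4 targets or early embryonic genes, 1 passed the filter, Eif1a, a translation initiation factor. Eif1a was higher in iPSC than in EpiSC by 1.15 (SE 0.41, adjusted p = 0.0403, edgeR), where 12.1% of all genes were higher. The other listed genes were below the filter and were not tested. Of 12 germline genes controlled by promoter methylation, 2 were tested and none passed in any of the 9 comparisons. Among 9 tested SALL4 relatives and NuRD subunits, Mta3 rose over EpiSC by 2.46 in ESC and 2.38 in iPSC (adjusted p = 0.027 and 0.00908, edgeR). In all, 2 of the 9 passed between ESC and EpiSC and 1 of 9 between iPSC and EpiSC, against 14.9% and 28.5% of all genes. Rbbp4, a histone-binding subunit, was higher in ESC than in EpiSC by 1.36 (adjusted p = 0.0286, edgeR). It was lower in iPSC than in ESC by 1.05 (value -1.05, adjusted p = 0.0173, edgeR), where 6.27% of all genes differed.

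The genes most like the group were found by the correlation of log2 CPM with the mean z-score of the 7 tested genes over 17 libraries. They were Clmp (Pearson r = 0.931), Mybl2 (0.885), Tdh (0.884), Hsp90aa1 (0.879) and Smarcad1 (0.865). These r values are descriptive, since the points share the gap between the 2 EpiSC and the other libraries. Tdh, threonine dehydrogenase of naive mouse stem cells, had 34 counts in ESC, 319 in iPSC and 0 in EpiSC. Clmp has 463 exon bases that overlap Gm16096 on the opposite strand.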

How the data were processed

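RNA libraries of 14 iPSC, 3 ESC and 2 EpiSC were made with a stranded mRNA kit. The authors trimmed reads with Trimmomatic, aligned them to GRCm38 (mm10) with TopHat2 2.1.1 and deposited raw counts of read pairs per gene from HTSeq. The strand setting is not given in the sources used here. Read pairs on no gene stayed out of library sizes and tests, and made up the rest of the aligned pairs.

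The 9 genes, the gene lists and the tests were chosen with earlier results of these data known. All 9 genes are named in every comparison. From each list at most 4 genes were named, first those past the threshold by absolute log2 fold change, with the 5 genes of highest correlation. The lists held naive, primed and fibroblast markers, the LIN28 and let-7 pathway, DPPA2 and DPPA4 targets, germline genes, SALL4 relatives with NuRD subunits, and DPPA3 partners in DNA methylation.

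Counts were fitted in R 4.3.3 with edgeR 4.0.16 (TMM, filterByExpr with a minimum count of 10 and total of 15, glmQLFTest), with Benjamini-Hochberg adjusted p under 0.05 over all tested genes. Standard errors were derived from the F statistic, and 95% intervals from them by the normal quantile. Such intervals can be narrower than the F test allows. For L1td1 in iPSC against ESC the interval was above 0, from 0.0249, at an unadjusted p = 0.0516 (edgeR). Cell states were fitted over 17 libraries in 3 groups, strain and medium over the same 17 in 6 groups, NOD/ShiLtJ sex over 19 in 7 groups, and sex over 8 with strain. Log2 CPM used a prior count of 2. Genes below the filter were tested by exact two-sided permutation of log2 CPM, and for Dppa2 also of counts per aligned pairs with a pseudocount of 0.1. Alternatives were DESeq2 1.42.0, its size factors in edgeR, aligned read pairs as library size, no filter, each library left out, the other labels, subsets of iPSC and a clone block. The scripts were tested on simulated data. No 2 libraries of a group held identical values. Whether lines are separate cultures is known only for clones, so p-values measure the spread between these libraries.

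Clones 1 and 17 of 129S1/SvImJ are the same lines in both media, which pairs those 4 libraries. The correlation of the deviations of clone 1 in the 2 media was 0.0488 over 4641 genes. Before TMM, 3 counts correspond to 5.29 CPM at the greatest depth and 32.3 CPM at the lowest.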

Additional observations from a re-analysis of the deposited data

Results flagged for a closer look

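Sall4 in WSB/EiJ iPSC clone 28 stood far from the other 3 clones of its group. It had 267 CPM from 30 counts, against 133, 125 and 131 CPM in clones 12, 23 and 25. The gap exceeded Dixon's 95% critical value for 4 samples. It was the 1 value found in 18 tests of groups of 4, and chance flags about 1 in 20.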

How the results depend on the processing

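Of the counts of genes that passed, 86 of 102 alternatives stayed within 1.5 times the main count, which includes main counts of 0 that stayed 0. No log2 difference that passed as reported changed sign. For these differences the call was kept in 92 alternatives and lost in 31. Between ESC and EpiSC the count of 5 became 0 under the characteristics labels, 3 with the NOD/ShiLtJ males in the fit, and 2 to 4 when each library was left out (2 without the 129 EpiSC, 3 without the NOD/ShiLtJ EpiSC and 3 without the WSB/EiJ ESC). Between iPSC and EpiSC the count of 4 became 0 under the characteristics labels, and 5 with aligned read pairs (with Utf1), without the filter and with the NOD/ShiLtJ males (both with Dppa2). Between iPSC and ESC the count of 0 became 1 with aligned read pairs as library size (Lin28a), 1 without the filter and 1 with the NOD/ShiLtJ males (both Dppa2). Between NOD/ShiLtJ males and females the count of 1 became 0 by DESeq2, with its size factors, without the filter and with the 2 groups alone, 8 with aligned read pairs, and 0 to 1 with each library left out. The Dppa2 difference between iPSC and EpiSC (mean log2 CPM, 1.82) was 1.40 to 2.23 with each EpiSC left out, with an exact p of 0.154 each time, the smallest that 13 splits allow, so that test could not have passed. The clone averages of Dppa2 were likewise an alternative chosen after seeing the data. With clone as a replicate block, or with the same 2 clones in each medium without a block (an alternative chosen after seeing the data), 0 genes passed in the 129S1/SvImJ medium comparison, as reported, and the block changed no call.

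Without the filter, the genes called in all rose from 1137 to 1874 for iPSC against EpiSC, 250 to 600 for iPSC against ESC, 31 to 105 for medium, 52 to 148 for WSB/EiJ against 129S1/SvImJ, 9 to 83 for NOD/ShiLtJ females against 129S1/SvImJ, 42 to 134 for WSB/EiJ against NOD/ShiLtJ females and 24 to 58 for sex. The causes were not tested. The depth of most libraries leaves genes such as Dppa2, Dppa3, Dppa4 and Utf1 at 0 to 23 counts in each of the 17 libraries, where counting error is wide.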

Other observations

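Partners of DPPA3 in DNA methylation were measured although Dppa3 itself was barely counted. Of 7 tested genes, 3 rose over EpiSC in both ESC and iPSC, where 7.3% and 12.1% of all genes were higher. Dnmt3l, a cofactor of the de novo methyltransferases, was 129 ± 58.3 CPM in ESC (SD, n = 3), 133 ± 60 CPM in the 12 iPSC (SD, n = 12) and 3.79 ± 5.36 CPM in EpiSC (SD, n = 2), with adjusted p = 0.00233 and 0.000379 by edgeR. Tet2, a dioxygenase that oxidises methylcytosine, rose by 3.78 in ESC (SE 0.711, adjusted p = 0.00134, edgeR) and 4.36 in iPSC (SE 0.641, adjusted p = 3.6e-05, edgeR). Tet1 rose by 2.51 and 2.35 (adjusted p = 0.0201 and 0.00919, edgeR). Dnmt3a was lower in iPSC than in EpiSC, at -1.65 (adjusted p = 0.0286, edgeR), as was Dnmt3b. None of the 7 passed between iPSC and ESC, where 6.27% of all genes did.

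In the NOD/ShiLtJ male iPSC, 4 of 11 tested naive markers were higher than in NOD/ShiLtJ females, where 8.14% of all genes were higher and 30.5% differed. Esrrb was 590 ± 209 CPM in males and 188 ± 48.2 CPM in females (SD, n = 2 each), a difference of 1.64 (SE 0.354, adjusted p = 0.000709, edgeR). Klf2 (1.74), Klf5 (2.11) and Nanog (1.08) also passed. The fibronectin gene Fn1 was higher in the same libraries, at 3090 ± 735 CPM against 888 ± 69.3 CPM (adjusted p = 0.00375, edgeR).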
